A study of Homo sapiens with 20 samples.

Results

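The kidney line UO-31 and the ovarian line OVCAR-4 were compared in the absence of drug, in libraries from cells that had received only the vehicle, 0.01% DMSO. The members were chosen by label: both vehicle libraries of UO-31 and both of OVCAR-4, which gives 4 of the 20 libraries of the series, with 2 replicate libraries for each line. UO-31 is a renal cell carcinoma line and OVCAR-4 an ovarian adenocarcinoma line, both from the NCI-60 panel, and each was represented by a single established line. Both were grown in the same medium, RPMI-1640 with fetal bovine serum, and neither carries an introduced allele according to the labels. The study treated 5 tumor cell lines (COLO 320DM, ABC-1, UO-31, OVCAR-4 and RKO) with 0.01% DMSO or with 1 µM G007-LK, an inhibitor of the tankyrases TNKS1 and TNKS2, for 24 h before RNA extraction, and measured poly(A) RNA by sequencing. UO-31 and OVCAR-4 were both counted among its TNKSi-sensitive lines, so the comparison asked how these lines differed before any inhibitor was given. The G007-LK libraries of the same lines, 2 for each, were used to look at the same genes in other cultures.

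Tankyrases attach poly(ADP-ribose) chains to their substrate proteins, which marks many of them for degradation. Among the substrates are the AXIN proteins, scaffolds of the complex that degrades β-catenin in WNT signaling, and the angiomotins, which hold the coactivator YAP outside the nucleus. Tumors of the renal tubule and of the ovarian and tubal epithelium share part of their origin, since kidney and Müllerian duct arise from intermediate mesoderm and both use the transcription factor PAX8. Carcinoma lines also differ in how epithelial they are: E-cadherin, claudins and the splicing regulators ESRP1 and ESRP2 mark the epithelial state, and the repressors of the ZEB, SNAI and TWIST families mark the mesenchymal state.

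Levels are given as RPKM (mapped reads normalized to gene length and library size) after each library was rescaled to the same sum. This step was needed because the RPKM of the 2 OVCAR-4 libraries summed to 895010 and 909187, against 514173 and 498181 in UO-31, a ratio of 1.78 between the means of the lines. The total number of reads was not stated, but the smallest steps between low values gave the relative read totals that the RPKM were divided by. In the UO-31 libraries these totals were 1.73 and 1.74 times that of the first OVCAR-4 library. Such a total need not be the number of reads behind the gene values. After rescaling, 1 read was worth nearly the same in all 4 libraries, within 1.00 to 1.04 times. The replicates of a line lay close together, and their correlation across 12627 genes was 0.998 for each line. Of the sum of squares over the 4 libraries, 99.2% lay between the lines. With 2 libraries for each line, the p-values rest on the spread between these libraries and say nothing of kidney and ovarian cancers as such. Tissue of origin, the donor and the growth state of the line cannot be told apart here. Among 20 markers of blood, endothelial and muscle cells, 13 stayed under 1 rescaled RPKM in all 4 libraries, with HBB and CD3D at 0 throughout. The other 7 were CD68, LYZ, CD14, PECAM1, VWF, TIE1 and CDH5. The macrophage and lysosome marker CD68 was the highest, at 25.1 and 23.9 in UO-31 against 17.2 and 16.6 in OVCAR-4. Endothelial markers did not move together, since the receptor TIE1 and the cadherin CDH5 were higher in UO-31, while PECAM1 (mean 0.0326 against 0.974) and VWF (mean 0.577 against 0.915) were lower there. TIE1 was at 5.16 and 4.97 in UO-31 and at 0.0782 and 0.130 in OVCAR-4, while CDH5 was at 7.34 and 7.07 against 2.25 and 2.49.

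The lines differed at most genes. A test was made at the 12627 genes whose mean reached 1 rescaled RPKM, and 11115 (88.0%) passed, 46.1% higher in UO-31 and 41.9% higher in OVCAR-4. The test was limma on log2(rescaled RPKM + 0.5) with a Benjamini-Hochberg adjusted p under 0.05. Here "called" means that a gene passed and also differed by at least 2-fold, and 4423 genes (35.0%) were called. Of these, 2426 (19.2% of all genes tested) were higher in UO-31 and 1997 (15.8%) were higher in OVCAR-4. Counts of called list members below are to be read against these shares. For 93.9% of the genes tested, both libraries of one line lay above both of the other, so that freedom from overlap was common and is read here only against that share. Differences of at least 8-fold were found at 484 genes higher in UO-31 and 403 higher in OVCAR-4, and differences of at least 32-fold at 86 and 101 genes.

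**Figure D1:**
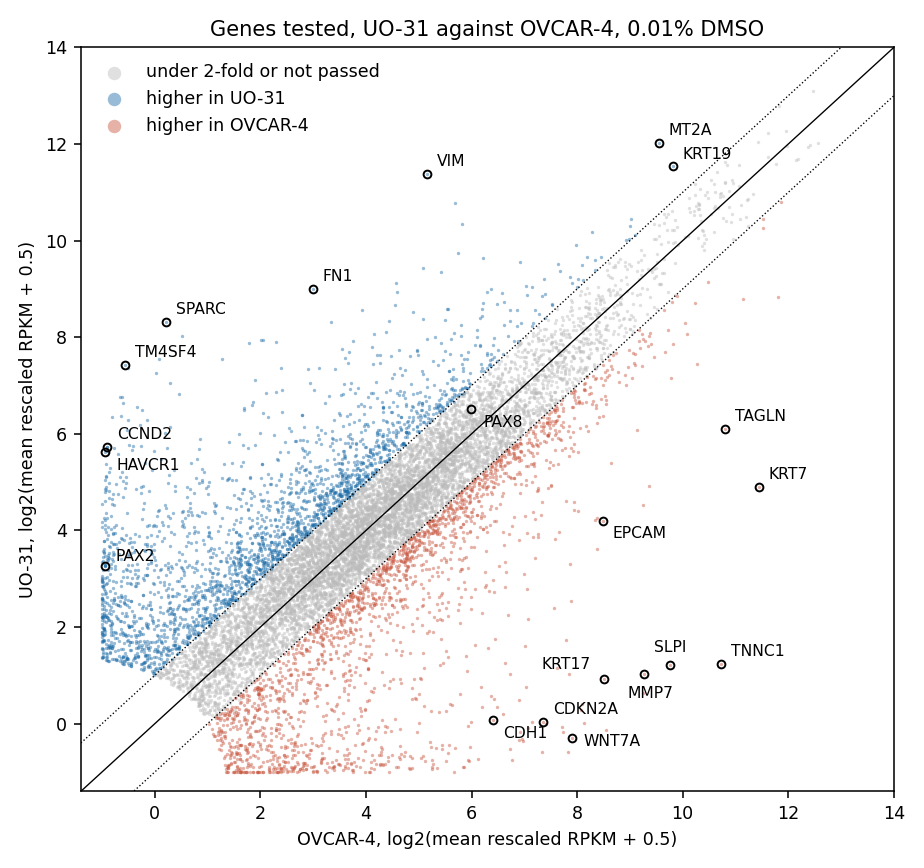
Mean level of each tested gene in OVCAR-4 (horizontal axis) and UO-31 (vertical axis), both as log2(rescaled RPKM + 0.5) over 2 libraries with 0.01% DMSO, with the line of equality and dotted lines at 2-fold. The 2426 genes called higher in UO-31 lie above the dotted lines and the 1997 called higher in OVCAR-4 below them, with PAX8 close to the line of equality and SPARC and TNNC1 far from it.

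The largest differences, among genes with a mean of at least 10 in the higher line, were of mixed function in both directions. SPARC, a collagen-binding matrix glycoprotein (chr5:151040657-151066536 in GRCh37), was at 327 and 310 in UO-31 and at 0.590 and 0.722 in OVCAR-4, a log2 difference of 8.11 (SE 0.06, limma adjusted p = 1.6e-12). INHBA, the subunit of activin A, was at 164 and 162 against 0.173 and 0.239. CYP24A1, the enzyme that inactivates vitamin D, was at 253 and 264 against 1.03 and 0.831. These genes were abundant in both UO-31 libraries and close to background in both OVCAR-4 libraries. The other genes among the 15 largest differences in this direction were TM4SF4, EPDR1, FKBP10, GDF5, CYTL1, EFEMP2, CDH13, EDIL3, TRIM55, THBS2, CLDN11 and APBB1IP, and over the 15 the log2 difference ran from 6.74 to 8.11, with a highest adjusted p of 1.2e-07. FKBP10, a chaperone of collagen folding, was the one expressed strongly in each of the other lines, at a mean of 251 in COLO 320DM, 94.9 in ABC-1 and 118 in RKO.

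TNNC1, the calcium-binding troponin subunit of slow and cardiac muscle (chr3:52485116-52488057), had the largest difference of all genes tested. It was at 1.52 and 2.20 in UO-31 and at 1689 and 1692 in OVCAR-4, a log2 difference of -9.50 (SE 0.17, limma adjusted p = 2.0e-05). The muscle markers ACTA1, DES, MYOD1 and MYH1 did not accompany it and were all under 0.50 in the 4 libraries. SLPI, a secreted protease inhibitor of mucosal surfaces, was at 1.79 and 1.83 against 859 and 863. SLC34A2, a phosphate transporter of secretory epithelium, was at 0.482 and 0.354 against 369 and 382. Others among the largest were IGFBP2, NPTX2, MMP7, WNT7A, WFDC2, GJB2, NMU, IL1R2, LCP1, KRT17 and BMP7. Over the 14 genes named here, log2 differences ran from -9.50 to -7.53, and the highest adjusted p was 0.00041, for IGFBP2, whose UO-31 libraries were at 0.701 and 1.39 against 602 and 614.

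Markers of the tissue of origin fitted the labels in part. PAX8, the transcription factor that both lineages use (chr2:113973574-114036498), was at 87.5 and 93.4 in UO-31 and at 63.9 and 63.0 in OVCAR-4. The other 3 lines had means of 0.528 (COLO 320DM), 0.535 (ABC-1) and 1.28 (RKO), so that PAX8 stood apart in these 2 lines. Between them it differed by a log2 value of 0.51 (SE 0.04, limma adjusted p = 1.1e-06), and this order turned when the RPKM were compared without rescaling.

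The kidney list held 13 genes that could be tested. Of these, 7 (53.8%) were called higher in UO-31 and 3 (23.1%) higher in OVCAR-4, against 19.2% and 15.8% of all genes. The median log2 difference of the list was 1.19, against 0.06 over all genes. That median was 0.03 without the filter on low levels and 3.85 in a fit over all 10 DMSO libraries, which tested other sets of members. PAX2, a renal lineage factor, was at 9.13 and 8.98 in UO-31 and at 0.0454 and 0 in OVCAR-4. HAVCR1, a receptor of injured and malignant proximal tubule, was at 49.2 and 48.0 against 0 and 0.0353, and VCAM1, an adhesion molecule, at 50.4 and 49.3 against 0.0194 and 0.0606. MME, a membrane peptidase of the proximal tubule brush border, was at 11.2 and 11.4 against 0.0329 and 0. All of these were near 0 in OVCAR-4. In the opposite direction, the kidney cadherin CDH6 was lower in UO-31, at 7.28 and 6.40, than in OVCAR-4, at 77.4 and 76.9 (log2 difference -3.41, SE 0.06). The water channel AQP1 was at 0.315 and 0.207 in UO-31 and at 3.10 and 2.90 in OVCAR-4, and the carbonic anhydrase CA12 at 13.9 and 14.3 against 44.6 and 42.3. The 16 members under the filter included the defining genes of differentiated proximal tubule: the endocytic receptors LRP2 and CUBN, the factor HNF4A and the phosphate transporter SLC34A1 had means from 0 to 0.0935 in UO-31.

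Of 20 tested genes of the ovarian serous list, 17 (85%) were called higher in OVCAR-4 and 2 (10%) higher in UO-31. All genes tested gave 15.8% and 19.2%, and the median log2 difference of the list was -4.08. WFDC2, which encodes the serum marker HE4, was at 0.332 and 0.679 in UO-31 and at 291 and 270 in OVCAR-4. MUC16, which encodes CA125, was at 0.00144 and 0.00736 against 5.72 and 6.64, a modest level even in OVCAR-4. SOX17, a factor of Müllerian epithelium, was at 15.2 and 14.3 against 154 and 150. EMX2, a factor of urogenital development, was at 0.0434 and 0.0222 against 40.6 and 39.3. MECOM was at 10.1 and 9.88 against 42.8 and 42.0, and the folate receptor FOLR1 at 0.260 and 0.532 against 21.6 and 21.9. OVCAR-4 was above UO-31 at each of these, and SOX17 and MECOM were also present in UO-31. The retinoic acid binding protein CRABP2 and the mucin MUC1 followed the same order, at means of 232 and 42.1 in OVCAR-4 and 9.35 and 3.98 in UO-31. DLX5 was listed at 0 in both UO-31 libraries and at 14.6 and 15.9 in OVCAR-4.

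Kallikreins, secreted serine proteases encoded side by side on chromosome 19, split between the lines. KLK10 was at 0.465 and 0.517 in UO-31 and at 173 and 167 in OVCAR-4, and KLK6 was at 0.207 and 0.211 against 50.7 and 51.9. KLK11 went the other way, at 50.9 and 49.1 in UO-31 against 0.437 and 0.0505 in OVCAR-4 (log2 difference 6.13, SE 0.29, limma adjusted p = 0.00011). The phosphoprotein SPP1 was also higher in UO-31, at 290 and 275 against 71.5 and 65.8. WT1, which marks most serous carcinomas, was near 0 in both lines, at 0.478 and 0.340 in UO-31 and at 0.0412 and 0.107 in OVCAR-4, and was not tested.

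HOX genes, which encode positional transcription factors in 4 clusters, differed by cluster. Of 25 HOX genes tested, 17 (68%) were called higher in UO-31 and none higher in OVCAR-4, against 19.2% and 15.8% of all genes. The median log2 difference was 1.86, or 0.16 over the members left by a filter at a mean of 5. All 10 tested HOXA genes and all 6 tested HOXC genes were among the 17, with log2 differences from 1.56 to 4.75 for HOXA and from 1.13 to 2.88 for HOXC. HOXA9 was at 15.4 and 14.5 in UO-31 and at 0.121 and 0.0313 in OVCAR-4. HOXA3 was at 30.2 and 31.7 against 1.33 and 1.25, and HOXC10 at 16.2 and 16.9 against 1.95 and 1.74. Summed over the cluster, HOXA genes came to 117 and 118 in UO-31 and to 10.1 and 9.78 in OVCAR-4. The HOXB cluster was expressed in both lines and summed to 96.7 and 101 against 127 and 131. Of 9 tested HOXB genes, 7 were higher in OVCAR-4 by under 2-fold. An example is HOXB8, at 8.43 and 9.99 against 17.7 and 18.7. HOXB7 was instead slightly higher in UO-31, at 25.3 and 25.7 against 22.2 and 23.6, in an order that turned without rescaling. HOXB13, at the end of that cluster, was the remaining one called higher in UO-31, at 1.99 and 2.67 against 0.719 and 0.513. HOXD genes were low in both lines, with a highest mean of 0.626 in UO-31 and 0.0251 in OVCAR-4. In the other lines HOXC11 reached a mean of 48.4 in COLO 320DM, above its 4.15 and 4.42 in UO-31 and 0.179 and 0.341 in OVCAR-4.

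**Figure D2:**
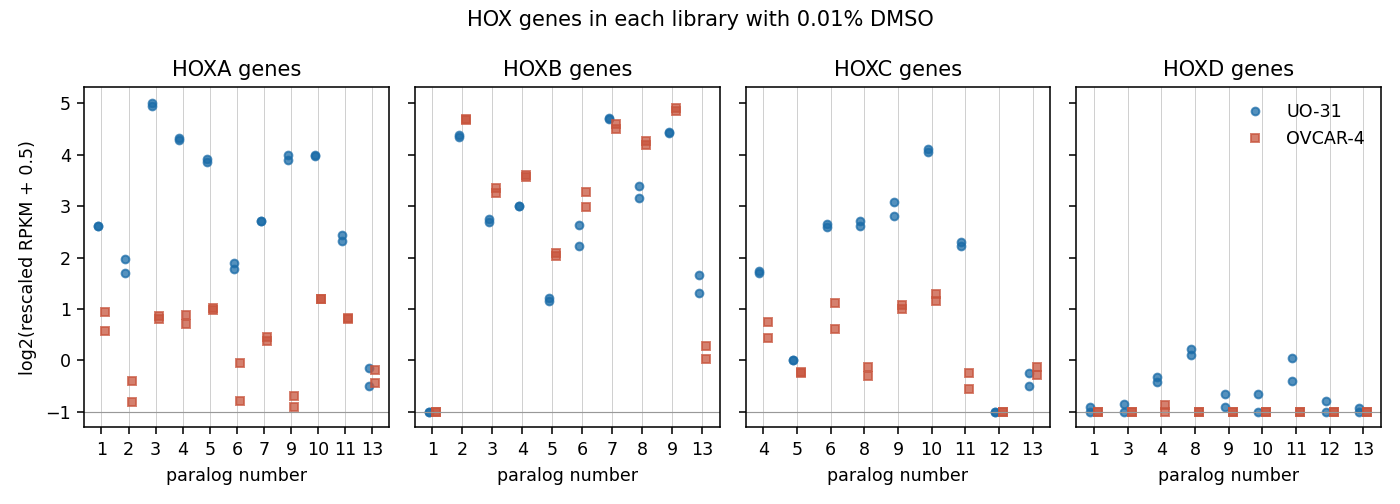
Level of each HOX gene in each of the 4 libraries, as log2(rescaled RPKM + 0.5), by cluster and paralog number, with the grey line at a level of 0. UO-31 libraries lie above those of OVCAR-4 at the 10 tested HOXA and 6 tested HOXC genes, both lines lie close together over HOXB, and HOXD is near 0 in both.

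Epithelial genes were mostly higher in OVCAR-4. Of 47 genes tested, 38 (80.9%) were called higher in OVCAR-4 and 3 (6.4%) higher in UO-31, against 15.8% and 19.2% of all genes. The median log2 difference was -2.76. CDH1, which encodes E-cadherin (chr16:68771195-68869440), was at 0.550 and 0.549 in UO-31 and at 83.7 and 85.9 in OVCAR-4, a log2 difference of -6.34 (SE 0.06, limma adjusted p = 2.5e-12). EPCAM was at 18.7 and 17.0 against 357 and 363. The splicing regulator ESRP1 was at 0.116 and 0.0509 against 60.9 and 62.6, and ESRP2 at 0.157 and 0.112 against 18.7 and 19.3. In these genes UO-31 lay near background, apart from EPCAM. The factors GRHL2 and OVOL2, which maintain epithelial identity, were at means of 0.0610 and 0.0618 in UO-31 and 19.4 and 12.7 in OVCAR-4. CDH3 (P-cadherin), CLDN7, S100A14, ST14 and RAB25 differed by log2 values from -7.13 for CLDN7 to -6.02 for RAB25. DSP, a desmosome protein, was at 23.1 and 23.8 in UO-31 against 158 and 165 in OVCAR-4.

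Not all epithelial genes were lower in UO-31. The tight junction gene CLDN1 was higher in UO-31, at 227 and 226 against 68.1 and 73.6, and so were the desmosomal cadherins DSG2, at 90.9 and 93.0 against 42.0 and 44, and DSC2, at 9.50 and 8.43 against 0.750 and 0.644. MAL2, an apical transport protein, was similar at 165 and 158 against 174 and 176, with a log2 difference of -0.11 whose sign changed under quantile normalization. Simple keratins were abundant in both lines. KRT8 was at 2490 and 2403 against 1497 and 1483, and KRT18 at 1734 and 1641 against 1227 and 1199, and for both the order turned without rescaling. KRT19 was at 3021 and 2925 in UO-31 against 907 and 888 in OVCAR-4 (log2 difference 1.73, SE 0.02). Over the keratin list, 1 of 15 genes tested (6.7%) was called higher in UO-31 and 6 (40%) higher in OVCAR-4, against 19.2% and 15.8% of all genes. KRT7, the keratin of ductal epithelium, was at 31.1 and 27.5 against 2761 and 2779, and KRT17, a keratin of basal and reactive epithelium, at 1.56 and 1.23 against 361 and 363. KRT13 was at 0.183 and 0 against 38.0 and 37.6. ABC-1 was the other line with high KRT8 and KRT19, at means of 2312 and 1909.

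The mesenchymal list showed the reverse pattern. Of 29 genes tested, 21 (72.4%) were called higher in UO-31 and 2 (6.9%) higher in OVCAR-4, against 19.2% and 15.8% of all genes. The median log2 difference was 3.17. VIM, the intermediate filament of mesenchymal cells (chr10:17270240-17279592), was at 2639 and 2721 in UO-31 and at 35.3 and 34.7 in OVCAR-4, a log2 difference of 6.24 (SE 0.02, limma adjusted p = 9.7e-14). FN1 (fibronectin) was at 501 and 521 against 7.41 and 7.48. CDH2 (N-cadherin) was at 166 and 164 against 4.76 and 4.72, and the receptor AXL at 240 and 248 against 3.6 and 3.47. The cadherin genes CDH1 and CDH2 thus stood in opposite order in the lines. Repressors of the epithelial state were present at low levels in UO-31 and near 0 in OVCAR-4. ZEB1 was at 3.10 and 3.35 against 0.0598 and 0.0622, ZEB2 at 3.96 and 4.12 against 0.00677 and 0.00704, and SNAI2 at 5.71 and 6.26 against 0.0296 and 0.0308. TWIST1 was at 11 and 9.97 against 0.0375 and 0.0390, and FOXC2 at 31.9 and 36.3 against 0.0372 and 0.232. The exceptions were abundant: TAGLN, an actin-binding protein, was at 71.9 and 63.9 in UO-31 against 1772 and 1804 in OVCAR-4. The calcium-binding protein S100A4 was at 0.895 and 1.49 in UO-31 against 136 and 125 in OVCAR-4. ZEB1 reached a mean of 79.7 in RKO, far above its level in UO-31, and RKO was low for CDH1 as well, at a mean of 0.138.

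**Figure D3:**
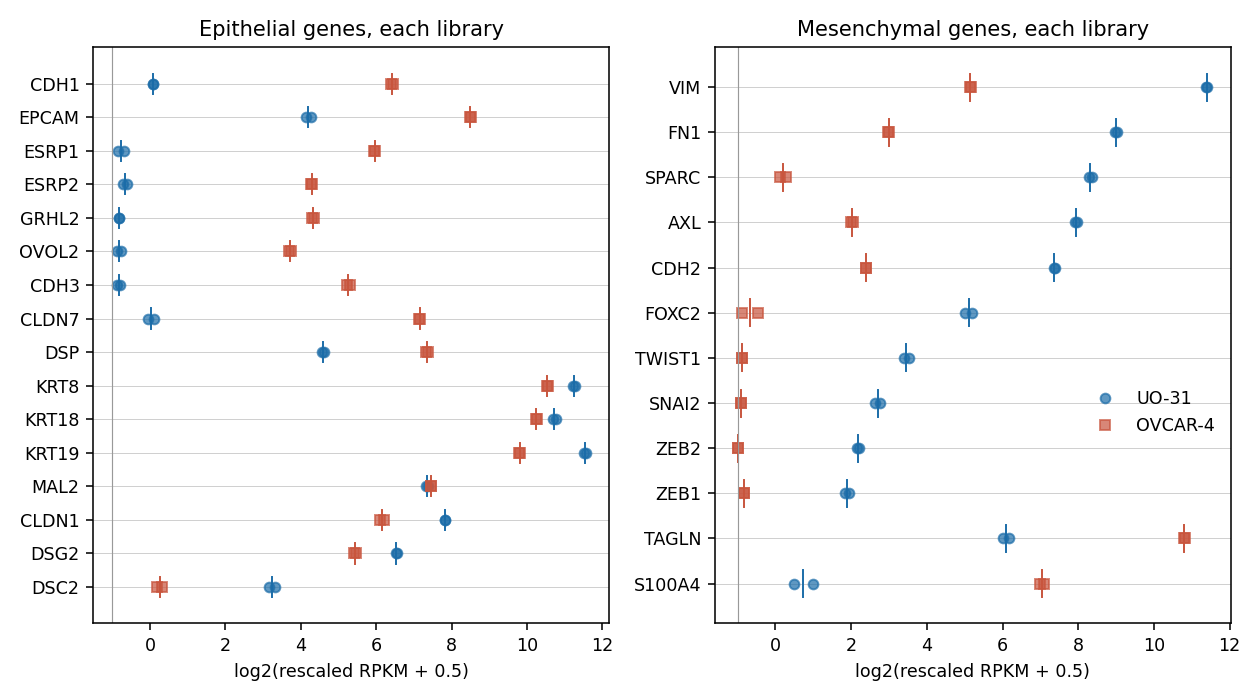
Level of epithelial genes (left panel) and mesenchymal genes (right panel) in each of the 4 libraries with 0.01% DMSO, as log2(rescaled RPKM + 0.5), with short bars at the means of 2 libraries and the grey line at a level of 0. The lines do not overlap at CDH1, ESRP1, VIM or ZEB1, while MAL2, KRT8 and KRT18 lie close together and TAGLN and S100A4 are higher in OVCAR-4 than in UO-31.

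ZEB and SNAI proteins bind the E-box CAGGTG, which reads CACCTG on the other strand, and promoters of epithelial genes were therefore searched for these letters in the 250 bases before the start of each gene (RefSeq, GRCh38.p14). Of the 38 epithelial genes called higher in OVCAR-4, 22 had a promoter in the RefSeq table and 11 of these (50%) held at least 1 site. The share was 17.5% over all 27305 promoters and 15.8% over the 9239 promoters of tested genes. It was 2 of 3 for epithelial genes called higher in UO-31, and 2 of 15 for mesenchymal genes called higher in UO-31. These are counts of letters and were given no test. The promoters first planned for printing were those of CDH1, EPCAM, ESRP2, CLDN3, CLDN4 and CLDN7. CDH1, EPCAM and ESRP2 had no promoter entry and were not searched, and CLDN3, CLDN4 and CLDN7 held no site. The promoters of CRB3, RAB25 and CLDN7 are printed because they show many sites, 1 site and no site at genes higher in OVCAR-4. CRB3 and RAB25 were chosen after the sites had been counted, and capitals mark the E-box letters.
CRB3, chr19:6464021-6464270, plus strand: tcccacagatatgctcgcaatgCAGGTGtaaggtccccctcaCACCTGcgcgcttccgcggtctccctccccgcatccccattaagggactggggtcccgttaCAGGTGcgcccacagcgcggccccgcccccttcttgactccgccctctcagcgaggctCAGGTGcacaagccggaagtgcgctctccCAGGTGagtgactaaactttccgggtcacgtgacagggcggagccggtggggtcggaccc
RAB25, chr1:156060910-156061159, plus strand: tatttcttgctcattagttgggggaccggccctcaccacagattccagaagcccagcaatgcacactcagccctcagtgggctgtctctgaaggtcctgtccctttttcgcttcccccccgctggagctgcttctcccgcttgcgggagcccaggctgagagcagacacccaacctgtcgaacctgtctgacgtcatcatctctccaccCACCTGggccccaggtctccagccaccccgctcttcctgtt
CLDN7, chr17:7263214-7263463, minus strand: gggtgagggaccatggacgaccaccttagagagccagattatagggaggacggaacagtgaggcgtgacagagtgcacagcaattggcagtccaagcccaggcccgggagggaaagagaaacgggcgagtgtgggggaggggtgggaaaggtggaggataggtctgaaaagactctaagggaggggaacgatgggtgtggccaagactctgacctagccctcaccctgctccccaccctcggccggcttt

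CRB3, a polarity protein of the apical membrane, held 5 sites and was at 16.9 and 20.1 in UO-31 against 61.4 and 62.5 in OVCAR-4. RAB25, a GTPase of apical recycling, held 1 site 41 bases before the start and was at 0.172 and 0.293 against 45.5 and 48.6. CLDN7, a claudin of tight junctions, held none and had the larger difference, at 0.466 and 0.572 against 140 and 144. These 3 genes were picked by hand, and whether the number of sites goes with the size of the difference was not tested.

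Matrix genes were mostly higher in UO-31. Of 25 collagen and laminin genes tested, 14 (56%) were called higher in UO-31 and 6 (24%) higher in OVCAR-4, against 19.2% and 15.8% of all genes. The median log2 difference was 1.64. COL1A1, the main chain of fibrillar collagen, was at 121 and 120 in UO-31 against 4.61 and 4.95 in OVCAR-4, and LAMA4, a laminin chain of mesenchymal and endothelial basement membrane, at 67.2 and 67.4 against 0.204 and 0.176. COL4A5, COL8A1 and COL13A1 were also higher in UO-31, by log2 values of 4.55, 3.32 and 3.24. The epithelial laminin chain LAMA3 went the other way, at 6.43 and 6.86 against 96.5 and 100, as did LAMA5, at 15.9 and 16.7 against 76.6 and 77.7, and COL18A1, at 75.4 and 76.4 against 195 and 194. Integrins, the receptors for these proteins, were called higher in UO-31 at 8 (53.3%) and in OVCAR-4 at 3 (20%) of 15 genes tested. Over all genes the shares were 19.2% and 15.8%. ITGA3 was at 512 and 516 against 84.0 and 81.0, ITGA2 at 8.83 and 9.64 against 0.592 and 0.698, and ITGB6, an epithelial chain, at 8.79 and 8.96 against 37.1 and 39.2.

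Secreted proteases and their inhibitors were called higher in UO-31 at 13 (65%) and in OVCAR-4 at 3 (15%) of 20 genes tested. The shares over all genes were 19.2% and 15.8%. The median log2 difference of this list was 1.86. PLAU, which encodes the plasminogen activator urokinase, was at 318 and 324 in UO-31 against 21.0 and 21.1 in OVCAR-4. MMP14, a membrane-bound collagenase, was at 226 and 218 against 16.2 and 17.5, and MMP1 at 14.1 and 15.1 against 0.0601 and 0.0938. OVCAR-4 instead had MMP7 (matrilysin, made by glandular epithelium), at 593 and 629 against 1.71 and 1.35, and the inhibitor TIMP3, at 39.7 and 39.6 against 0.241 and 0.164.

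**Figure D4:**
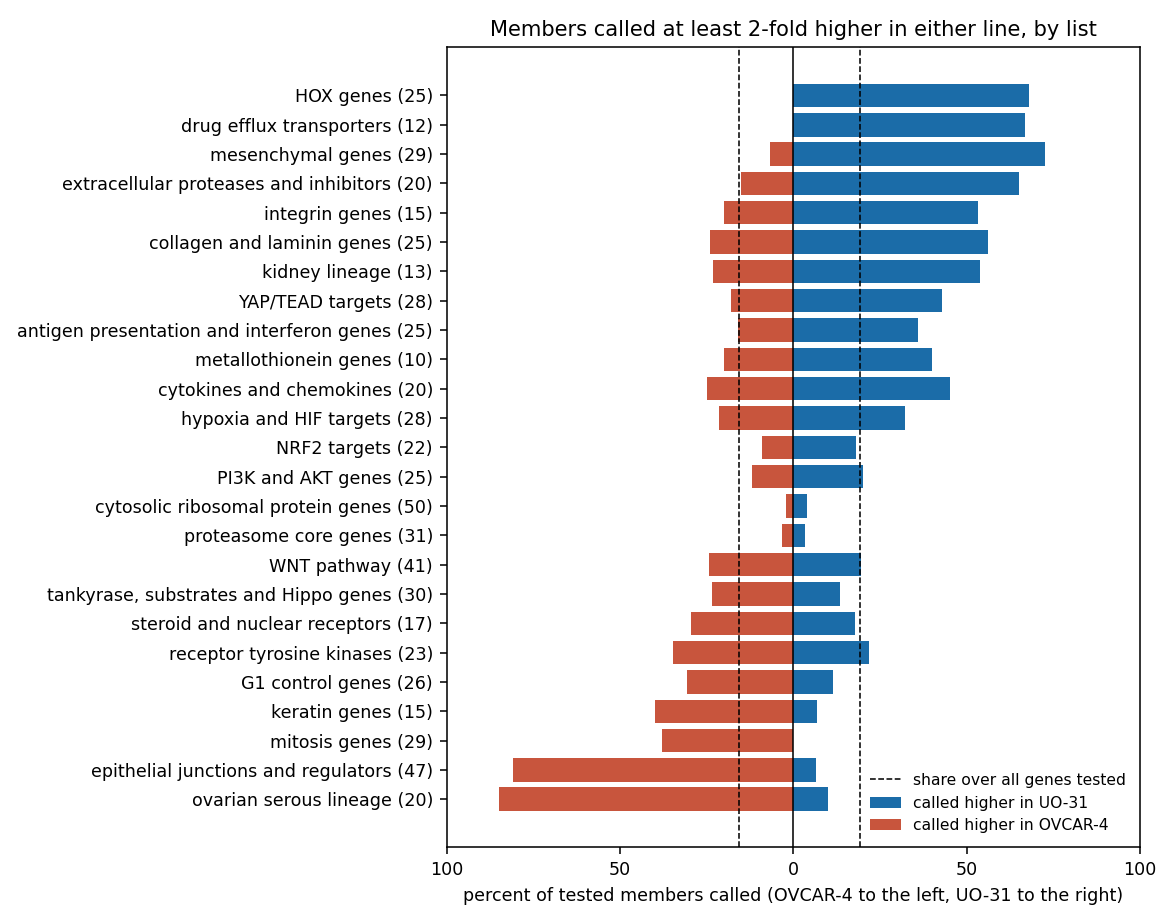
Percent of the tested members of each list with at least 10 tested genes (number in brackets) that were called higher in UO-31 (right) or in OVCAR-4 (left), with dashed lines at the shares over all genes tested, 19.2% and 15.8%. HOX, drug efflux and mesenchymal genes extend far to the right, epithelial and ovarian serous genes far to the left, and ribosomal protein and proteasome genes stay inside the dashed lines.

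WNT pathway genes were divided. Of 41 tested, 8 were called higher in UO-31 and 10 higher in OVCAR-4, and together these are 43.9% of the list against 35.0% of all genes. Among ligands, WNT7A, which acts in the Müllerian duct (chr3:13857755-13921568), was at 0.255 and 0.373 in UO-31 and at 235 and 241 in OVCAR-4, a log2 difference of -8.20 (SE 0.07, limma adjusted p = 2.4e-12). WNT7A was at means of 0, 0.522 and 0 in COLO 320DM, ABC-1 and RKO, so OVCAR-4 stood alone among the 5 lines. WNT5B, a ligand of noncanonical signaling, went the other way at 31.2 and 32.6 against 0.167 and 0.145. Of the 4 secreted antagonists tested, 2 were higher in each line. DKK1, which blocks the LRP coreceptors, was at 17.7 and 18.5 against 0.0345 and 0, and DKK3 was at 161 and 161 against 9.76 and 10.5. SFRP1, which binds WNT ligands, was at 1.70 and 1.32 in UO-31 against 12.5 and 12.7 in OVCAR-4, and NOTUM, which inactivates them, at 0.0830 and 0 against 11.7 and 11.6. The antagonists SFRP2, FRZB and WIF1 were under the filter. AXIN2 was at 0.461 and 0.274 in UO-31 against 5.89 and 6.18 in OVCAR-4 (log2 difference -2.92, SE 0.12, limma adjusted p = 2.0e-08). The ubiquitin ligases RNF43, at 0.207 and 0.169 against 3.91 and 3.94, and ZNRF3, at 3.58 and 4.26 against 9.13 and 8.97, were also higher in OVCAR-4. These OVCAR-4 levels were far from those of COLO 320DM, where AXIN2 had a mean of 222 and RNF43 of 44.

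The receptor FZD8 was at 0.297 and 0.324 in UO-31 and at 8.09 and 8.76 in OVCAR-4, while the coreceptor LRP6 was at 6.73 and 7.20 against 7.40 and 7.31 and did not pass (adjusted p = 0.30 by limma). Of the nuclear partners of β-catenin, TCF7L1 was at 0.409 and 0.352 in UO-31 against 13.9 and 13.6 in OVCAR-4, and TCF7 was at 5.85 and 6.35 against 2.20 and 2.21. The factors thus had opposite order. Core components differed little. CTNNB1, which encodes β-catenin, was at 250 and 256 against 173 and 175 (log2 difference 0.54), and AXIN1 at 17.5 and 16.7 against 11.8 and 11.8 (log2 difference 0.52), both in an order that turned without rescaling. APC was at 4.73 and 4.81 against 7.67 and 7.79 (log2 difference -0.64).

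Of the targets of G007-LK, TNKS passed the test and TNKS2 did not. TNKS was at 7.45 and 7.57 in UO-31 against 3.91 and 4.10 in OVCAR-4, a log2 difference of 0.83 (SE 0.07, limma adjusted p = 2.5e-06) that no longer passed without rescaling. TNKS2 was at 17.1 and 17.4 against 17.8 and 18.1, a log2 difference of -0.06 (SE 0.05) that did not pass (limma adjusted p = 0.27). Of 30 genes on the list of tankyrases, their substrates and Hippo components, 4 were called higher in UO-31 and 7 higher in OVCAR-4, a share of 36.7% that is near the 35.0% of all genes. The angiomotins differed by member. AMOT was at 5.78 and 5.83 in UO-31 against 0.324 and 0.394 in OVCAR-4 (log2 difference 2.88, SE 0.10, limma adjusted p = 5.4e-09). AMOTL1 was at 21.1 and 21.4 against 23.1 and 24.5, and AMOTL2 at 132 and 137 against 174 and 176, with log2 differences of -0.16 and -0.38. AMOTL1 no longer passed without the second OVCAR-4 library (adjusted p = 0.0699 by limma).

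YAP1 was at 72.3 and 74.4 in UO-31 against 90.9 and 94.9 in OVCAR-4 (log2 difference -0.34, SE 0.03), while its paralog WWTR1 (TAZ) was at 75.5 and 75.9 against 26.5 and 27.2 (log2 difference 1.48, SE 0.04). The DNA-binding TEAD partners also differed by member. TEAD1 was at 40.5 and 41.5 in UO-31 against 13.6 and 14 in OVCAR-4, TEAD2 at 22.9 and 23.2 against 93.8 and 91.3, and TEAD3 at 10.8 and 11.1 against 27.3 and 26.5. Of 28 YAP/TEAD target genes, 12 (42.9%) were called higher in UO-31 and 5 (17.9%) higher in OVCAR-4. The shares over all genes were 19.2% and 15.8%. The median log2 difference of the targets was 0.37 and changed sign to -0.47 without rescaling. The best known targets CCN2 and ANKRD1 were abundant in both lines: CCN2 was at 311 and 313 against 268 and 282, in an order that turned without rescaling, and ANKRD1 at 351 and 331 against 348 and 387, where the libraries of the lines overlapped. CCN1 (chr1:86046444-86050272) was at 569 and 564 in UO-31 against 1394 and 1445 in OVCAR-4. Both lines were far above RKO, at a mean of 115 for CCN1, and above COLO 320DM, at 7.48. Targets called higher in UO-31 included DLC1, at 35.5 and 37.9 against 0.0502 and 0.0435, TGFB2, at 97.7 and 95.3 against 2.91 and 3.28, and CAV1, at 206 and 221 against 24.1 and 24.4. Those called higher in OVCAR-4 included IGFBP3, at 30.1 and 29.5 against 647 and 673, the tissue factor gene F3, at 4.22 and 3.32 against 56.1 and 53.1, and FOXF2, at 0.317 and 0.148 against 4.06 and 3.87.

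MYC and CCND1, on which these pathways converge, differed by under 2-fold. MYC was at 96.1 and 96.0 in UO-31 against 64.4 and 60.6 in OVCAR-4 (log2 difference 0.62), and CCND1 at 185 and 188 against 147 and 148 (log2 difference 0.34). For both genes the order turned without rescaling, and both lines were far below COLO 320DM for MYC, at a mean of 2812.

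**Figure D5:**
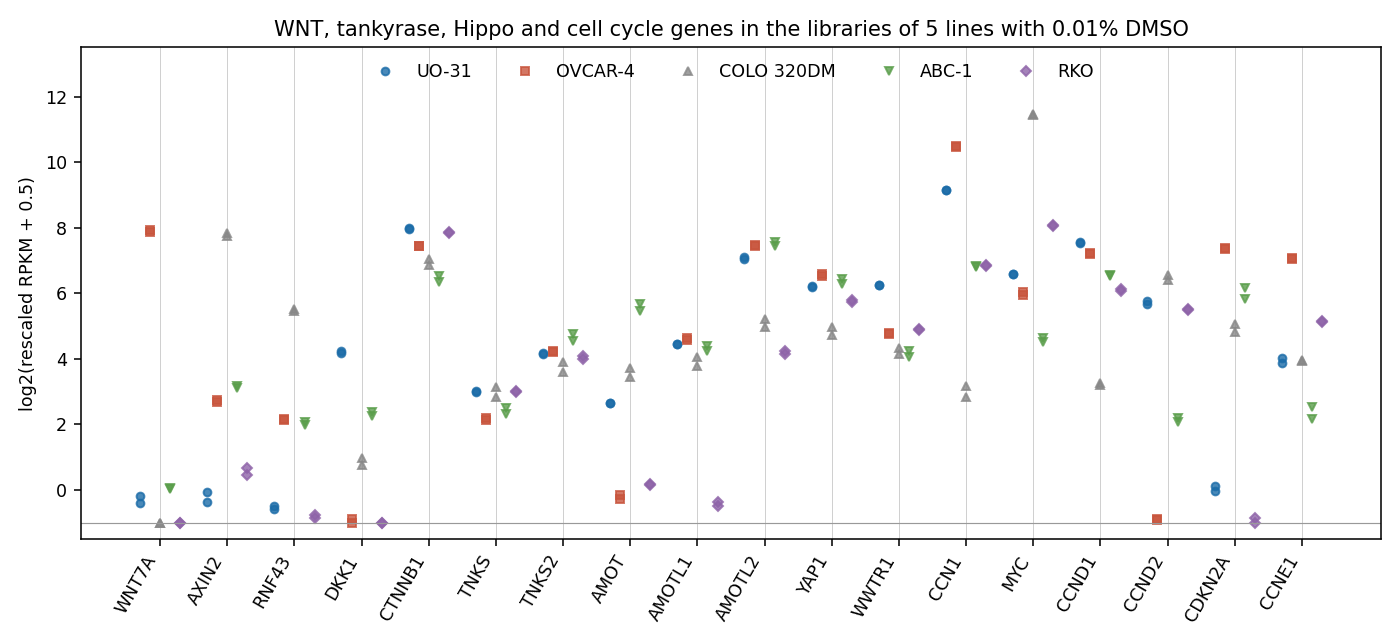
Level of WNT, tankyrase, Hippo and cell cycle genes in the 2 libraries of each of 5 lines with 0.01% DMSO, as log2(rescaled RPKM + 0.5), with the grey line at a level of 0. UO-31 and OVCAR-4 are close at TNKS2, AMOTL1, YAP1, MYC and CCND1 and far apart at WNT7A, DKK1, AMOT, CCND2 and CDKN2A.

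Receptor tyrosine kinases were called higher in UO-31 at 5 (21.7%) and in OVCAR-4 at 8 (34.8%) of 23 genes tested, against 19.2% and 15.8% of all genes. Counting also those under 2-fold, 10 passed in each direction, and the median log2 difference was 0.05. Besides AXL, PDGFRB was at 22.0 and 23.0 in UO-31 against 0.0985 and 0.0683 in OVCAR-4, and EGFR at 36.5 and 38.6 against 13.6 and 15. EPHA1 was at 0.131 and 0.134 in UO-31 against 33.5 and 33.5 in OVCAR-4. FGFR2 was at 3.12 and 2.63 against 41.5 and 42.7, FGFR4 at 3.13 and 3.51 against 19.2 and 18.5, and ERBB4 at 0.0792 and 0.146 against 4.42 and 4.51. Downstream, 5 of 25 PI3K and AKT genes were called higher in UO-31 and 3 higher in OVCAR-4, a share of 32% against 35.0% of all genes. The kinase gene AKT2 was at 27.4 and 29.1 in UO-31 against 57.8 and 57.3 in OVCAR-4. The phosphatase INPP4B was at 18.4 and 18.9 against 3.02 and 2.86, and the lipid kinase subunit PIK3CD at 12.6 and 13.1 against 3.44 and 3.81.

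Regulators of the G1 phase differed member by member. CDKN2A, which encodes both the CDK4 inhibitor p16 and the ARF protein, not told apart by 1 value per gene (chr9:21967751-21995300), was at 0.474 and 0.573 in UO-31 and at 166 and 161 in OVCAR-4, a log2 difference of -7.33 (SE 0.06, limma adjusted p = 2.0e-12). CCNE1, which encodes cyclin E1, was at 15.7 and 14.2 against 130 and 135. CCND2, which encodes cyclin D2 (chr12:4378937-4414519), was at 53.8 and 50.8 against 0.0383 and 0.0299, and the inhibitor CDKN1C was at 40.4 and 42.3 against 2.19 and 2.31. OVCAR-4 was thus higher for CCNE1 and CDKN2A and UO-31 for CCND2 and CDKN1C. E2F3 was at 11.6 and 11.5 against 33.8 and 35.1. Over the list of 26 tested genes, 3 were called higher in UO-31 and 8 higher in OVCAR-4, together 42.3% against 35.0% of all genes. Mitosis genes were shifted together: of 29 tested, 27 passed with a higher level in OVCAR-4, against 41.9% of all genes, and 1 passed with a higher level in UO-31. Their median log2 difference was -0.59, and 11 (37.9%) were called higher in OVCAR-4, against 15.8% of all genes. MKI67, which encodes the proliferation antigen Ki-67, was at 26.1 and 28.0 in UO-31 against 58.9 and 58.5 in OVCAR-4, KIF11 at 22.4 and 23.8 against 60.4 and 61.6, PTTG1 at 144 and 153 against 389 and 383, and CDK1 at 78.8 and 80.5 against 177 and 177. Growth rate and cell cycle distribution in these cultures were not analysed here.

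Drug efflux transporters were called higher in UO-31 at 8 (66.7%) of 12 genes tested and higher in OVCAR-4 at none, against 19.2% and 15.8% of all genes. The median log2 difference was 1.61. ABCB1, which encodes P-glycoprotein (chr7:87132333-87342639), was at 23.0 and 23.1 in UO-31 and listed at 0 in both OVCAR-4 libraries (limma adjusted p = 3.7e-11). It was higher still in COLO 320DM, at a mean of 83.7, and near 0 in ABC-1 and RKO, at 0.00633 and 0.0320. ABCA3 was at 32.5 and 32.5 against 2.47 and 2.33. ABCC1 was nearly equal, at 46.5 and 46.8 against 55.5 and 54.8 (log2 difference -0.24). Among NRF2 targets, 4 of 22 were called higher in UO-31 and 2 higher in OVCAR-4, a share of 27.3% against 35.0% of all genes. The heme oxygenase gene HMOX1 was at 86.4 and 87.7 in UO-31 against 18.6 and 20.6 in OVCAR-4, the thioredoxin reductase gene TXNRD1 at 303 and 303 against 97.3 and 98.1, and AKR1B1 at 585 and 596 against 256 and 260. These genes are from the 4 called higher in UO-31, and the 2 called higher in OVCAR-4 are not described. Summed over the list, the mean level was 10191 in UO-31 and 12111 in OVCAR-4.

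Metallothioneins, small metal-binding proteins, also split. MT2A was at 4091 and 4199 in UO-31 against 757 and 740 in OVCAR-4, and MT1E at 1143 and 1165 against 306 and 315. MT1G was at 18.5 and 14.5 against 0.632 and 0.329, and MT1F went the other way at 58.1 and 55.5 against 164 and 175. These genes are near-identical copies, so reads may have been assigned to the wrong member and the split between them is uncertain.

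Cytokine and chemokine genes were called higher in UO-31 at 9 (45%) and in OVCAR-4 at 5 (25%) of 20 genes tested, against 19.2% and 15.8% of all genes. Their median log2 difference was 0.55, and it ran from 0.26 to 1.29 when single libraries were left out. IL32 was at 880 and 844 in UO-31 against 51.3 and 55.6 in OVCAR-4, the death ligand TNFSF10 (TRAIL) at 119 and 112 against 4.26 and 4.56, and IL11 at 23.3 and 23.3 against 1.08 and 1.09. CXCL16 was higher in OVCAR-4, at 54.5 and 52.9 against 4.98 and 5.12. Of 25 antigen presentation and interferon genes tested, 9 (36%) were called higher in UO-31 and 4 (16%) higher in OVCAR-4. The shares over all genes were 19.2% and 15.8%, so the count for OVCAR-4 was near its share. OAS1 was at 14.3 and 14.4 in UO-31 against 1.01 and 1.05 in OVCAR-4, OAS3 at 21.7 and 20.6 against 2.48 and 2.36, PSMB9 at 64.3 and 67.4 against 9.73 and 9.87, and TAP1 at 33.8 and 32.9 against 8.35 and 8.42. BST2 (tetherin) opposed them, at 0.257 and 0.328 against 124 and 115, and so did GBP1, at 8.27 and 9.14 against 55.2 and 55.7. Interferon genes were thus not shifted as a block. The 9 HLA genes of the list were not analysed here.

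Nuclear receptors were called higher in UO-31 at 3 (17.6%) and in OVCAR-4 at 5 (29.4%) of 17 genes tested, against 19.2% and 15.8% of all genes, with a median log2 difference of 0.05. PPARG, a regulator of lipid metabolism, was at 30.2 and 32.2 in UO-31 against 0.0652 and 0.0339 in OVCAR-4, and NR2F6 at 21.1 and 20.8 against 246 and 242. Of 28 hypoxia and HIF target genes tested, 9 were called higher in UO-31 and 6 higher in OVCAR-4, together 53.6% against 35.0% of all genes. LOX, which cross-links collagen, was at 55.7 and 58.7 in UO-31 against 5.85 and 5.97 in OVCAR-4, and the glycolytic enzyme gene ENO2 at 38.3 and 40.0 against 7.59 and 8.41. The glucose transporter SLC2A3 was at 8.38 and 9.0 in UO-31 against 0.191 and 0.182 in OVCAR-4. In the other direction EGLN3, which encodes an oxygen sensor, was at 0.950 and 1.37 against 27.9 and 29.9, NDRG1 at 14.2 and 16.5 against 61.0 and 62.8, and ALDOC at 0.114 and 0.0775 against 16.8 and 17.6.

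Housekeeping lists differed little. Of 50 cytosolic ribosomal protein genes, 2 were called higher in UO-31 and 1 higher in OVCAR-4, together 6.0% against 35.0% of all genes, although 49 passed the test in either direction. Their median log2 difference was 0.38 and changed sign to -0.45 without rescaling. Of 31 proteasome core genes, 1 was called in each direction, and their median log2 difference was -0.24. Of 25 cancer-testis genes listed, 21 had a row, 18 of these were under the filter, and 1 was called higher in UO-31 and 2 higher in OVCAR-4.

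The line differences were compared once more in the 4 libraries with 1 µM G007-LK, which the vehicle comparison did not use. There 4816 of 12771 genes (37.7%) were called. Of 4357 genes that were called with DMSO and could be tested with G007-LK, 4342 passed in the same direction, 3938 (90.4%) were also at least 2-fold apart, and 5 had the opposite direction. A test of the difference itself, the interaction of line and treatment over 8 libraries, passed at 1618 of 12697 genes (12.7%), with 798 higher and 820 lower in UO-31 relative to OVCAR-4 under G007-LK. That count fell to 409 without rescaling and ranged from 589 to 5368 when single libraries were left out, being 3409 without the first and 5368 without the second UO-31 G007-LK library. Shifts were ranked among genes that passed with a mean of at least 5 over the 8 libraries, leaving out small RNA, XIST and Y-linked genes. The largest of these toward UO-31 were at SPON2, NID2, FBXO32, ESRG and VGLL1, with interaction log2 values from 1.57 to 1.77. The largest toward OVCAR-4 were at SHISA2, TMEM101, SCGB2A1, UPK1B and IGFBP5, from -1.5 to -1.27. The UO-31 G007-LK libraries lay farther apart than the others, with a median absolute log2 difference between replicates of 0.155, against 0.0608 for OVCAR-4 with G007-LK and 0.0555 and 0.0534 with DMSO. EGFR, for example, was at 42.7 and 20.1 in them. AXIN2, with a line difference of -2.92, had an interaction of 1.45. CDH1 and SPARC did not pass the interaction test, and for VIM, with a line difference of 6.24, the interaction was -0.64.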

How the data were processed

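Poly(A) RNA of 20 libraries from 5 cell lines was sequenced on an Illumina HiSeq instrument, and the authors aligned the reads to the hg19 gene set with SOAP2, allowing at most 2 mismatches, and deposited 1 RPKM value per gene and library. Strand was not stated, the number of reads was not given, and absolute depth is therefore unknown. Further deposited files hold the authors' own treatment comparisons within each line and were not used. The table held 21610 entries, of which 8 had no gene symbol (at most 0.00134% of the RPKM). Entries sharing a symbol (371 symbols) were joined, which left 21201 symbols, and missing values were taken as 0.

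Each library was rescaled to the mean RPKM sum of the 4 libraries compared. Genes with a mean of at least 1 were tested with limma 3.58.1 (R 4.3.3, trend and robust options) on log2(rescaled RPKM + 0.5), and p-values were adjusted by the Benjamini-Hochberg method over all genes tested. On simulated data for this comparison (12338 genes), 89.2% of 65 genes changed by 0.5 on the log2 scale passed, and 0.173% of unchanged genes passed. The simulated noise was independent and drawn from the spread estimated by the same fit, and few genes were changed. These shares therefore describe the test under its own assumptions and do not measure its error rate in these libraries. The fold changes are on this scale, which understates differences of low genes.

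Members and gene lists were chosen with earlier results of these data known. The naming rule selected 267 genes: the 15 largest differences each way with a mean of at least 10 in the higher line, up to 6 per list each way, a fixed set of 25 genes, the 5 highest levels in each line and 5 interaction genes each way. The interaction genes needed a mean of at least 5 over the 8 libraries of that fit. Small RNA, XIST and Y-linked genes were left out of these and of the largest differences. Of the 267 genes, 163 are described. The other 104 were left out after their values were seen, to shorten the text and in part the lists of turned and flagged genes. The choice was not blind to how they behaved under the alternatives or in the interaction test. Counts over all 267 are given in the closing section, and a few of the genes are not reported here for other reasons. LRP2, CUBN, HNF4A, SLC34A1, SOX17, MECOM, FOLR1, CRABP2, DLX5, MUC1, HOXB7, HOXB8, HOXC11, HOXB13, ESRP2, GRHL2, OVOL2, CDH3, ST14, RAB25, DSP, CRB3, MAL2, ZEB2, SNAI2, TWIST1, CDH2, KRT8, KRT18, RNF43, ZNRF3, TCF7, APC, LRP6, CCN2, ANKRD1, FGFR4, MKI67, CDK1 and ABCC1 were named after their values were seen. Positions are from GENCODE v44lift37 (GRCh37). Promoters are from RefSeq (GRCh38.p14). Alternatives were other scalings, pseudocounts, filters, sample sets and fits, and leaving out each library.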

Additional observations from a re-analysis of the deposited data

Results flagged for a closer look

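The difference between the lines was not the same with G007-LK as with DMSO at 1618 of 12697 genes, by limma's test of the interaction of line and treatment over 8 libraries. Values below are the line difference (UO-31 minus OVCAR-4, log2) with G007-LK minus that with DMSO, for the 50 genes with printed values that passed. All 50 kept their sign in every alternative run, and 32 passed in each of them. The other 18, which did not pass in at least 1 alternative, were ABCB1, AMOTL2, BMP7, CAV1, CCND1, CDH2, CLDN11, GJB2, KRT17, MUC16, NOTUM, S100A4, SNAI2, SOX17, TM4SF4, VGLL1, WNT5B and WNT7A, with SNAI2 and TM4SF4 passing in 4 alternatives each. Of all genes that the naming rule selects, the interaction passed at 42 of 162 described here (25.9%) and at 39 of 103 not described (37.9%). Genes were left out in part to shorten this list of flagged genes.

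Among the largest shifts, the interaction was 1.77 for SPON2, 1.67 for NID2, 1.66 for FBXO32, 1.57 for ESRG and 1.57 for VGLL1, and it was -1.5 for SHISA2, -1.43 for TMEM101, -1.39 for SCGB2A1, -1.30 for UPK1B and -1.27 for IGFBP5. Among WNT, angiomotin and YAP genes it was 1.45 for AXIN2, 0.75 for NOTUM, 0.56 for AMOTL2, 1.02 for ANKRD1, 0.55 for CAV1, 0.93 for F3, 0.50 for CCND1, -0.76 for IGFBP3, -0.48 for WNT5B and -0.55 for WNT7A.

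Lineage genes with an interaction were CDH6 (1.23), SPP1 (0.80), KLK10 (1.06), SLC34A2 (0.78), SOX17 (0.31), BMP7 (0.52), CRABP2 (-0.92) and MUC16 (-0.65). Epithelial and mesenchymal genes were FN1 (1.5), CDH2 (0.60), SNAI2 (0.56), VIM (-0.64), TAGLN (-0.97), S100A4 (-0.81), CLDN11 (-0.50), KRT17 (-0.65), KRT18 (-0.36), KRT8 (-0.57) and GJB2 (0.80). The remaining genes were ABCB1 (-0.90), HMOX1 (0.89), IL11 (-1.19), IL32 (-0.52), IL1R2 (0.73), TNFSF10 (-0.78), MMP1 (-1.05), PLAU (-0.82), PTTG1 (-0.64), CDK1 (-0.71) and TM4SF4 (0.40). The UO-31 G007-LK replicates differed by a median absolute log2 value of 0.155, against 0.0534 to 0.0608 in the other groups. With groups of 2, no single library was tested for standing apart.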

How the results depend on the processing

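The scale of the libraries decided the balance of directions. Without rescaling, 1170 genes were called higher in UO-31 and 5057 higher in OVCAR-4, against 2426 and 1997, and of list members 113 and 275 were called, against 165 and 157, while the interaction count fell from 1618 to 409. The order of the lines turned without rescaling at AXIN1 (-0.28), CCN2 (-0.65), CCND1 (-0.49), CTNNB1 (-0.29), HOXB7 (-0.66), KRT18 (-0.36), KRT8 (-0.12), MYC (-0.21) and PAX8 (-0.32). It turned in the G007-LK libraries at ABCC1 (0.028), AMOTL1 (0.12), AMOTL2 (0.18), ANKRD1 (0.92), LRP6 (0.12), MAL2 (0.058) and TNKS2 (0.19), and under quantile normalization at MAL2 (0.031). Leaving out single libraries gave 10575 to 10936 genes that passed, 2353 to 2477 called higher in UO-31 and 1845 to 2164 higher in OVCAR-4. It gave 4698 to 5064 calls with G007-LK, 162 to 164 and 150 to 172 list members, and 589 to 5368 interactions, with 3409 and 5368 when UO-31 G007-LK replicate 1 or 2 was left out. With a replicate block, 11101 genes passed, 2429 and 1998 were called, 4809 were called with G007-LK and 1410 interactions passed, with 165 and 157 list members called. The replicate deviations of the lines correlated at 0.048, so the numbers were not taken to pair the samples. Of 3156 values of named genes under the alternatives, 3118 kept their direction and side of the threshold. Over all 267 genes that the naming rule selects, 4160 of 4181 did, and 12 genes turned in at least 1 alternative, 4 of them among the 104 not described. Under the block, the interaction no longer passed at CLDN11, SNAI2, TM4SF4 and WNT5B.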
